A study of Mus musculus with 10 samples.

Results

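Expression of 9 components of the Hedgehog signalling pathway was examined in OP9 stromal cells by RNA-seq. The genes *Ptch1*, *Smo*, *Boc*, *Cdon*, *Gas1*, *Hhip*, *Gli1*, *Gli2* and *Gli3* were chosen by name, and all 9 were found among the 26888 genes of the deposited expression table. Hedgehog ligands are secreted proteins that bind the receptor Ptch1, which in the absence of ligand keeps the membrane protein Smo inactive. Once released, Smo acts through the primary cilium to turn the Gli transcription factors from repressors into activators, and *Gli1*, *Ptch1* and *Hhip* are themselves transcribed in response to the signal in many tissues. In the embryo, Hedgehog signals pattern mesenchyme and bone and have been linked to the development of blood-forming tissue around the dorsal aorta.

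OP9 is an established stromal line from calvaria, foetal by the label and newborn by the authors' text, of (C57BL/6xC3H)F2-op/op mice, whose op/op genotype leaves them without functional M-CSF, and all 10 libraries came from this line. For the 6 reaggregates, cells were dispersed with trypsin, pelleted and kept for 48 h on nitrocellulose filters at the interface of liquid and gas. Collagenase and dispase were used to take the reaggregates apart before RNA extraction, a step that the methods do not give for flat cultures, and its effect was not tested. Reaggregates 2, 4 and 6 received IL-3, at a labelled dose of 200 µg/µl, and reaggregates 1, 3 and 5 did not. The dose is unusually high and is given here as labelled. The 4 flat cultures grew under medium without IL-3. The de Bruijn lab is given as the origin of flat cultures 2 and 4, whereas the other libraries carried no label of source. The methods name the Medvinsky group besides the de Bruijn group for flat cultures, and no group for reaggregates. They also mention variance due to passage number, which the labels do not give. The comparison asks how the transcriptome of this line differs between a 3-dimensional aggregate and a flat layer. Nothing in the labels says that the libraries of a group came from separate cultures, so p-values measure only the spread between these samples, which may be technical.

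Values are in RPM, the reads of a gene per M reads assigned to genes in its library. The commonest low value, which was taken to be 1 read, puts the reads on genes at 7.35 to 9.43 M in the reaggregates (median, 8.49 M) and at 8.26 to 8.70 M in the flat cultures (median, 8.37 M). At this depth 3 reads, used as a floor, were worth between 0.318 and 0.408 RPM, and floors and intervals cover counting error only. Consecutive reaggregates (1 and 2, 3 and 4, 5 and 6), each pair with and without IL-3, were more alike than other reaggregates. Pearson's r over all genes, which are not separate replicates, ran from 0.994 to 0.995 for the 3 pairs and from 0.961 to 0.98 for the 12 other combinations. Flat culture 3 stood apart from the other flat cultures and had the highest level among them for 6 of the 9 components, so results that rest on it are also given without it.

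The libraries carried the transcripts of a stromal line. *Col1a1*, the main chain of type I collagen, averaged 6632 ± 669 RPM in the 6 reaggregates and 2147 ± 1620 RPM in the 4 flat cultures (mean ± SD, as below), and the mesenchymal receptor gene *Pdgfra* averaged 363 ± 56.8 RPM and 123 ± 34.6 RPM. *Runx2*, a regulator of the osteoblast lineage, was between 31.1 and 102 RPM in the 10 libraries, whereas *Sp7*, which acts after it, stayed at or below 0.972 RPM. The haematopoietic marker *Ptprc* and the epithelial marker *Epcam* were at 0 in every library, and the endothelial markers *Pecam1* and *Cdh5* did not exceed 0.716 and 0.00702 RPM. In bulk RNA, fewer cells of a type and less RNA per cell cannot be told apart.

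Levels of different genes were compared after division by exon length (RPM per kb). In reaggregates the order of the means was *Gas1* at 65.2 ± 17.2 RPM per kb (SD, n = 6), *Smo* at 61.6 ± 10.7, *Cdon* at 11 ± 1.41, *Boc* at 10.8 ± 3.13, *Gli3* at 6.15 ± 0.767 and *Ptch1* at 1.72 ± 0.490 RPM per kb. *Gas1* and *Smo* overlapped, and *Boc* overlapped both *Cdon* and *Gli3*, whereas the step from *Smo* to *Cdon* and that from *Gli3* to *Ptch1* left no overlap between libraries. In flat cultures *Smo* came first, at 42.7 ± 7.48 RPM per kb (SD, n = 4), above every library of *Gas1* (8.11 ± 4.88), *Cdon* (5.91 ± 4.67), *Boc* (5.63 ± 2.41) and *Gli3* (3.99 ± 2.34), which overlapped their neighbours. *Ptch1*, at 1.14 ± 0.393 RPM per kb, lay below all of these. *Gli1*, *Hhip* and *Gli2* stood last in both groups, in that order and with overlapping ranges, and none of them exceeded 0.611 RPM per kb in any library. The cells thus carried transcripts of the receptor, the co-receptors, Smo and Gli3 at levels per kb above those of *Gli1*, *Gli2* and *Hhip*.

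Set against flat cultures, reaggregates had more RNA of the co-receptor gene *Gas1*. The mean of *Cdon*, another co-receptor gene, was also higher, but its call was less stable. A gene was called at a fold change of at least 2 on log2(RPM + 0.5) with an adjusted p (Benjamini-Hochberg) of 0.05 or less in limma. By this rule 2 of the 9 components were up-regulated, *Gas1* and *Cdon*, beside 7.32% of the 16933 genes tested, and 0 were down-regulated, beside 6.53% of the genes tested. The call of *Cdon* ended under 16 of 26 alternative settings, whereas that of *Gas1* was kept under all 26. At an unadjusted p under 0.05 in limma, 1 of the components was lower, *Gli1*, beside 22.5% of all genes, and 5 were higher (*Gas1*, *Boc*, *Smo*, *Cdon* and *Gli3*), beside 20.8%. With the adjusted p alone, *Boc* and *Smo* also passed and 4 components were higher, beside 13.6% of all genes higher and 15.7% lower. *Gas1* was the 1 component whose groups did not overlap, a separation seen in 7.8% of all genes in the direction of higher and 11.4% in that of lower values in reaggregates. Without flat culture 3, 4 components were up-regulated (*Gas1*, *Cdon*, *Boc* and *Gli3*), while the calls over all genes moved from 1239 to 2121 up-regulated genes. Leaving out flat culture 2 or 4 left *Gas1* as the 1 call among the components, beside 5.71% and 4.52% of all genes up-regulated. Leaving out any of reaggregates 1 to 4 did so too, beside 5.66% to 6.14%, as did averaging consecutive reaggregates, beside 1.9%. All 9 components passed the filter on low values, but *Gli2* did so through flat culture 2 alone and *Hhip* through flat culture 3 alone.

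**Figure D1:**
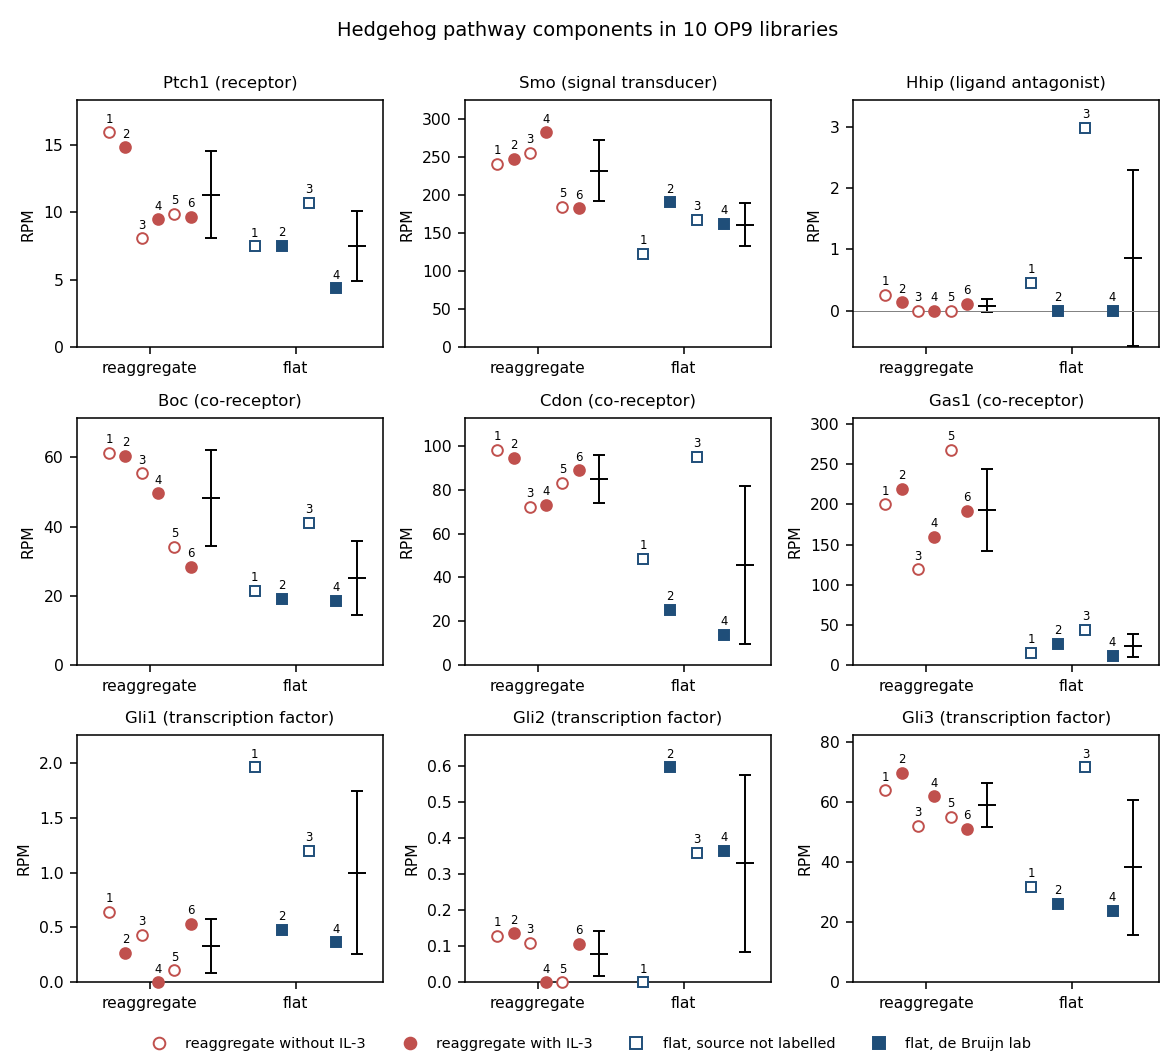
RPM of each component in the 6 reaggregates (circles, filled with IL-3) and 4 flat cultures (squares, filled for the de Bruijn lab), with the replicate number above each point and the mean and SD of each group as a bar at the right. *Gas1* lay between 119 and 268 RPM in reaggregates and between 11.5 and 43.7 RPM in flat cultures, whereas the other components overlapped between groups.

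*Ptch1*, the receptor of Hedgehog ligands and a target of the pathway (ENSMUSG00000021466; chr13:63610261-63674474, minus strand, NCBIM37), was measured at 15.9, 14.8, 8.06, 9.47, 9.87 and 9.67 RPM in reaggregates 1 to 6. It was at 7.48, 7.52, 10.7 and 4.37 RPM in flat cultures 1 to 4. Reaggregates 1 and 2 were above every other library, the remaining reaggregates lay between flat culture 3 and the other flat cultures, and flat culture 4 was lowest. The difference of 0.58 on the log2 scale (SE, 0.270; limma, adjusted p = 0.123) did not pass the threshold. Without flat culture 3, all 6 reaggregates were above the flat cultures and the log2 fold change was 0.76 (limma, adjusted p = 0.0441), which is under a fold change of 2. Against flat cultures 1 and 3 alone it was 0.28 (limma, adjusted p = 0.535). Over all settings compared the adjusted p ranged from 0.0381 to 0.535.

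*Smo*, which carries the signal across the membrane (ENSMUSG00000001761; chr6:29685694-29711365, plus strand), had the most reads of the 9 components in each group as a whole, though *Gas1* had more in reaggregates 5 and 6. *Smo* was between 183 and 283 RPM in reaggregates (median, 245 RPM) and at 123, 191, 168 and 163 RPM in flat cultures 1 to 4. Reaggregates 1 to 4 were above every flat culture, while reaggregates 5 and 6, at 185 and 183 RPM, lay below flat culture 2. The difference was 0.53 on the log2 scale, a fold change of 1.44 (SE, 0.173; limma, adjusted p = 0.0397), so that *Smo* was higher by the adjusted p but did not reach a fold change of 2. With consecutive reaggregates averaged the adjusted p was 0.179 (limma; range over all settings, 0.0164 to 0.186). Compared with *Ptch1*, the level of *Smo* per kb was higher in each of the 10 libraries.

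The co-receptors *Gas1*, *Cdon* and *Boc* encode cell surface proteins that bind Hedgehog ligands together with Ptch1 and promote the response to them. *Gas1* (ENSMUSG00000052957; chr13:60275766-60278726, minus strand), a membrane-anchored protein first described as induced in growth-arrested fibroblasts, was measured at 200, 219, 119, 160, 268 and 192 RPM in reaggregates 1 to 6. It was at 15.1, 25.8, 43.7 and 11.5 RPM in flat cultures 1 to 4. Every reaggregate was above every flat culture, with reaggregate 3 lowest in its group and flat culture 3 highest in the other. The log2 fold change was 3.12, a fold change of 8.69 (SE, 0.337; limma, adjusted p = 0.000168). Averaging consecutive reaggregates, at 209.5, 139.5 and 230 RPM for the 3 pairs, gave a log2 fold change of 3.13 (limma, adjusted p = 0.0111), and over all settings compared the adjusted p of *Gas1* ranged from 3.57e-05 to 0.0122.

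*Cdon* (ENSMUSG00000038119; chr9:35228713-35315236, plus strand), an immunoglobulin superfamily co-receptor, was between 72.3 and 98.3 RPM in reaggregates (median, 86.1 RPM). Flat cultures 1 to 4 were at 48.5, 25.3, 95.1 and 13.6 RPM. Flat culture 3 lay within the range of the reaggregates and the other flat cultures lay below it. The log2 fold change was 1.23 (SE, 0.411; limma, adjusted p = 0.0420), and it was 1.70 without flat culture 3 (limma, adjusted p = 0.00183). It was 0.78 without flat culture 4 (limma, adjusted p = 0.121) and 0.31 against flat cultures 1 and 3 alone (limma, adjusted p = 0.390). The call was lost when any reaggregate, flat culture 2 or flat culture 4 was left out, and with consecutive reaggregates averaged (limma, adjusted p = 0.201; range over all settings, 6.18e-05 to 0.390). Averaged reaggregates against flat cultures 1, 2 and 4 gave 1.70 (limma, adjusted p = 0.0307), a setting chosen after the values were seen.

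*Boc* (ENSMUSG00000022687; chr16:44485158-44559010, minus strand), the closest relative of *Cdon*, was measured at 61.4, 60.5, 55.4, 49.6, 34.1 and 28.3 RPM in reaggregates 1 to 6. It was at 21.5, 19.2, 41.1 and 18.5 RPM in flat cultures 1 to 4. Reaggregates 5 and 6 lay between flat culture 3 and the other flat cultures, and reaggregates 1 to 4 were above all of them. The difference of 0.95 on the log2 scale, a fold change of 1.94 (SE, 0.283; limma, adjusted p = 0.0275), passed the adjusted p but not the fold change. Without flat culture 3 the log2 fold change was 1.21 and *Boc* was called (limma, adjusted p = 0.00371), as it was without reaggregate 5 (1.04) or reaggregate 6 (1.09). Against flat cultures 1 and 3 alone the log2 fold change was 0.63 (limma, adjusted p = 0.239). With all flat cultures and averaged reaggregates the adjusted p was 0.131 (limma; range over all settings, 0.00371 to 0.239).

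*Hhip*, a membrane protein that binds Hedgehog ligands and so limits the response (ENSMUSG00000064325; chr8:82490014-82581905, minus strand), was near the floor. The values correspond to 2, 1, 0, 0, 0 and 1 reads in reaggregates 1 to 6 and to 4, 0, 25 and 0 reads in flat cultures 1 to 4. The level of 2.99 RPM in flat culture 3 thus supplied most reads of the gene, and flat culture 1, at 0.46 RPM, was the only other library above the floor of 3 reads. Pooled over libraries, *Hhip* was at 0.0787 RPM in reaggregates (95% Poisson interval, 0.0214 to 0.201), at 0.861 RPM in flat cultures (0.576 to 1.24) and at 0.158 RPM in flat cultures without flat culture 3 (0.0430 to 0.404). Without that library no difference was detectable at this depth. The limma fit over all libraries gave a log2 fold change of -0.73 (SE, 0.469; adjusted p = 0.246; range over all settings, 0.0280 to 0.830), on a scale that understates changes of low genes. Since the gene entered the test through flat culture 3, where it is high, no call is drawn from it.

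*Gli3*, which acts mainly as a repressor in the absence of ligand (ENSMUSG00000021318; chr13:15555068-15821859, plus strand), was measured at 63.8, 69.7, 52.1, 61.8, 55.1 and 51.1 RPM in reaggregates 1 to 6. It was at 31.7, 26.1, 71.5 and 23.7 RPM in flat cultures 1 to 4. The reaggregates lay close together and above flat cultures 1, 2 and 4, whereas flat culture 3 was the highest of all libraries. The log2 fold change of 0.76 did not pass (SE, 0.268; limma, adjusted p = 0.0522). Without flat culture 3 it was 1.10 and *Gli3* was called (limma, adjusted p = 0.000442). Without flat culture 4 it was 0.58 (limma, adjusted p = 0.165), and against flat cultures 1 and 3 alone 0.29 (limma, adjusted p = 0.473). Averaging consecutive reaggregates gave 0.76 with all flat cultures (limma, adjusted p = 0.219) and 1.11 without flat culture 3 (limma, adjusted p = 0.0153), the latter a setting chosen after the values were seen. The adjusted p ranged from 0.000183 to 0.473 over all settings.

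*Gli1*, an activator and a commonly used readout of the pathway (ENSMUSG00000025407; chr10:126766945-126778645, minus strand), was low in every library. It was at 0.641, 0.272, 0.436, 0, 0.108 and 0.531 RPM in reaggregates 1 to 6, and at 1.96, 0.477, 1.2 and 0.364 RPM in flat cultures 1 to 4. Flat cultures 1 and 3 were above all reaggregates, and flat cultures 2 and 4 lay among them. These values rest on 17 reads over the reaggregates and 34 over the flat cultures, or 0.334 RPM (95% Poisson interval, 0.195 to 0.535) and 1.01 RPM (0.699 to 1.41) with reads pooled. The intervals of the pooled reads did not overlap, but between libraries the log2 fold change of -0.78 did not pass (SE, 0.338; limma, adjusted p = 0.0992). Set against flat cultures 1 and 3 alone, it was -1.36 and *Gli1* was called (limma, adjusted p = 0.0269), and against flat cultures 2 and 4 alone it was -0.20 (limma, adjusted p = 0.623). The exons of *Gli1* share 55 bases, 1.45% of their length, with *Arhgap9* on the opposite strand, which did not exceed 0.345 RPM, and no such overlap was found for the other components.

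*Gli2*, the main activator in many tissues (ENSMUSG00000048402; chr1:120730709-120950196, minus strand), was represented by 1, 1, 1, 0, 0 and 1 reads in reaggregates 1 to 6 and by 0, 5, 3 and 3 reads in flat cultures 1 to 4. Every reaggregate was under the floor of its library, and flat culture 1 had no reads. With reads pooled, the level was 0.0787 RPM (95% Poisson interval, 0.0214 to 0.201) in reaggregates and 0.326 RPM (0.163 to 0.584) in flat cultures, 2 intervals that overlap. The limma fit gave a log2 fold change of -0.47 (SE, 0.223; adjusted p = 0.127; range over all settings, 0.0117 to 0.587). No call is drawn from *Gli2*, since it entered the test through flat culture 2, where it is high. Among the Gli genes, *Gli3* thus supplied nearly all reads in both groups, with 2964 reads over the reaggregates and 1287 over the flat cultures.

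**Figure D2:**
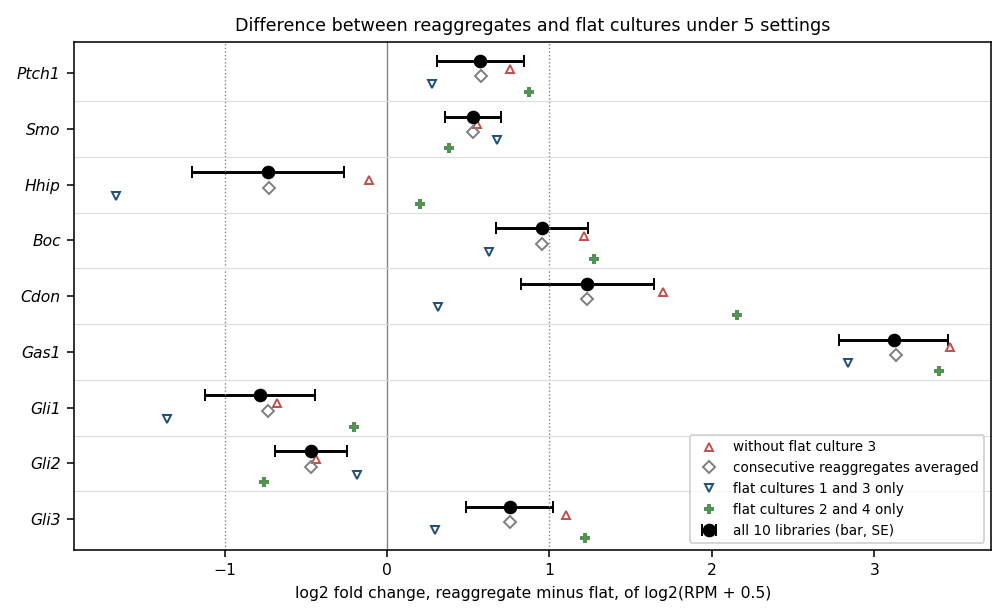
Log2 fold change of each component, reaggregates minus flat cultures, on log2(RPM + 0.5). Black points are from all 10 libraries with the SE as a bar, open and coloured symbols are from other choices of libraries, and dotted lines mark a fold change of 2. *Gas1* stayed between 2.84 and 3.46 with the choices drawn, whereas *Cdon* ranged from 0.31 with flat cultures 1 and 3 alone to 2.16 with flat cultures 2 and 4 alone.

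IL-3 was compared within the reaggregates, 3 cultures with it and 3 without. Group means of the components were alike, for example 190 ± 29.5 RPM (SD, n = 3) with IL-3 and 196 ± 74.6 RPM without it for *Gas1*, and 60.9 ± 9.34 and 57.0 ± 6.08 RPM for *Gli3*. Limma called 0 of the 9 components, beside 0% of the 16933 genes tested, of which 68 had an unadjusted p under 0.05 in this fit without the pairs. These made up 0.207% of all genes higher and 0.195% lower, under the 1 in 20 that chance gives. Differences between pairs count as error in this fit, which makes it conservative. With consecutive reaggregates as a block, 0 genes were called as well. None of the components was among those 68, and each had an adjusted p of 1. The largest difference was -0.24 on the log2 scale, for *Gli1* (SE, 0.351), which rests on 0 to 5 reads per library. For genes with more reads, the differences followed the pairs more than IL-3. The means of *Boc* in the 3 pairs spanned 0.96 on the log2 scale, and the largest difference within a pair was 0.26. *Boc* was lower with IL-3 in each of the 3 pairs (-0.02, -0.16 and -0.26), as 8.78% of all genes were, and with the pairs as a block its difference was -0.15 (limma, adjusted p = 0.982).

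Flat cultures 2 and 4, from the de Bruijn lab by their labels, were also compared with flat cultures 1 and 3. *Cdon* averaged 19.45 ± 8.27 RPM (SD, n = 2) in flat cultures 2 and 4 and 71.8 ± 33.0 RPM in flat cultures 1 and 3. *Gli1* averaged 0.42 ± 0.0799 and 1.58 ± 0.537 RPM, and *Hhip* was at 0 in flat cultures 2 and 4. For *Cdon*, *Gli1*, *Gli3* and *Boc*, flat cultures 2 and 4 were both below flat cultures 1 and 3, as they were for 34.1% of all genes. They were both above for 18.2% of all genes. *Hhip* and *Gli2*, which passed the filter through 1 flat culture each, are not counted here. Limma called 0 of the other components lower, beside 3.87% of all genes, and 0 higher, beside 1.82%. *Cdon* came nearest (log2 difference, -1.84; SE, 0.472; limma, adjusted p = 0.0921). Over all genes, 656 lower and 309 higher calls became 799 and 646 with quantile normalization, but 110 and 56 without a filter on low values. Leaving out a flat culture leaves 1 library on a side, so no calls are given for it. At an unadjusted p under 0.05, *Cdon* and *Gli1* were lower, beside 16.1% of all genes lower and 6.9% higher. The median gene differed by -0.17 on the log2 scale and by -0.02 after median-ratio scaling, and the comparison rests on 2 libraries a side.

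The remaining genes of the pathway were described from lists of 98 genes, of which 95 were in the table and 84 passed the filter on low values. Of these, 7 were up-regulated (8.33%) and 2 were down-regulated (2.38%), beside 7.32% and 6.53% of all genes, so that the share of up-regulated genes was near that of all genes. The log2 fold change was positive for 63 of the 84, with a median of 0.41 beside 0.04 for all genes tested. Without flat culture 3, 22 genes were up-regulated, among them the same 7, beside 12.5% of all genes in that setting. The count was 4 without reaggregate 1, reaggregate 2, flat culture 1 or flat culture 4, beside 5.75%, 5.66%, 6.81% and 4.52% of all genes. It was 12 without reaggregate 6, beside 8.44%, and 1 with consecutive reaggregates averaged, beside 1.9% of all genes. None of the 7 was called against flat cultures 1 and 3 alone, where 2 other genes were, beside 3.7% of all genes. Averaging left the call of *Osr2* and ended those of *Gpc6*, *Arrb1*, *Stk36*, *Csnk1e*, *Bbs2* and *Ntn1*. The call of *Arrb1* was also lost without reaggregate 1, 2, 4 or 5 or flat culture 2 or 4, that of *Csnk1e* without reaggregate 1, 2, 3 or 4 or flat culture 1, 2 or 4, that of *Ntn1* without reaggregate 1 or 2 or flat culture 1 or 4, and that of *Stk36* without flat culture 1.

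Hedgehog ligands themselves were near absent. *Shh* and *Dhh* were at 0 in every library, and *Ihh* did not exceed 0.217 RPM, under the floor of 3 reads. Of the 11 genes for ligands, their processing and their release that were in the table, 6 passed the filter and, beside 7.32% of all genes, 1 was up-regulated. This was *Gpc6*, a glypican and the most abundant gene of the list, which averaged 338 ± 30.8 RPM in reaggregates and 113 ± 93.1 RPM in flat cultures (log2 fold change, 1.96; limma, adjusted p = 0.00718). *Gpc4*, another glypican, averaged 45.3 ± 28.0 and 45.8 ± 19.3 RPM. In this list 2 genes were up-regulated without flat culture 3, beside 12.5% of all genes, and 0 with consecutive reaggregates averaged, beside 1.9%.

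Among 12 other receptors and membrane modulators, 10 passed the filter and, beside 7.32% of all genes, 1 was up-regulated, *Arrb1*, a beta-arrestin that binds activated Smo. The count was 6 without flat culture 3, beside 12.5% of all genes, and 0 with consecutive reaggregates averaged, beside 1.9%. *Arrb1* was between 69.5 and 112 RPM in reaggregates and at 45.4, 19.3, 95.6 and 14.9 RPM in flat cultures 1 to 4, so that flat culture 3 again lay with the reaggregates (log2 fold change, 1.35; limma, adjusted p = 0.0335). *Mgrn1*, which encodes a ubiquitin ligase, averaged 89.7 ± 11.1 RPM in reaggregates and 73.8 ± 22.1 RPM in flat cultures and was not called. All 20 intracellular regulators of Gli proteins passed the filter and, beside 7.32% of all genes, 2 were up-regulated, the kinase genes *Stk36* (log2 fold change, 1.13; limma, adjusted p = 0.0117) and *Csnk1e* (1.12; limma, adjusted p = 0.0342). Without flat culture 3 the count was 4, beside 12.5% of all genes, and with consecutive reaggregates averaged it was 0, beside 1.9%. *Csnk1a1* and *Csnk1d*, casein kinases that phosphorylate Gli proteins, were the most abundant, at 378 ± 34.5 and 252 ± 15.2 RPM in reaggregates and 316 ± 12.5 and 182 ± 39.2 RPM in flat cultures, and neither was called.

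All 37 genes of ciliary transport and assembly passed the filter. Beside 7.32% of all genes, 1 was up-regulated, *Bbs2*, which encodes a subunit of the BBSome that moves membrane proteins out of the cilium, at 16.2 ± 2.79 RPM in reaggregates and 7.2 ± 4.37 RPM in flat cultures (log2 fold change, 1.27; limma, adjusted p = 0.0138). *Kifap3* and *Kif3a*, parts of the kinesin that carries cargo into the cilium, were the most abundant. They averaged 76.9 ± 10.2 and 75.2 ± 12.1 RPM in reaggregates and 72.8 ± 7.57 and 40.4 ± 14.0 RPM in flat cultures. The median log2 fold change of the list was 0.38. Up-regulated genes of the list numbered 8 without flat culture 3, beside 12.5% of all genes, and 0 with consecutive reaggregates averaged, beside 1.9%.

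Of 16 other reported Hedgehog target genes in the table, 11 passed the filter, and their median log2 fold change was -0.24. *Osr2* and *Ntn1* were up-regulated, beside 7.32% of all genes, and *Ccnd1* and *Ccnd2* down-regulated, beside 6.53%. *Osr2*, a transcription factor of limb and palate mesenchyme, was between 5.10 and 26.0 RPM in reaggregates and between 0.486 and 4.55 RPM in flat cultures (log2 fold change, 2.71; limma, adjusted p = 0.00383). The guidance cue *Ntn1* averaged 61.2 ± 10 and 32.0 ± 15.4 RPM (1.03; limma, adjusted p = 0.0159). *Ccnd1* and *Ccnd2*, cyclins that drive entry into the cell cycle and that other pathways control as well, were down-regulated, *Ccnd1* from a mean of 1435 ± 530 RPM in flat cultures to 219 ± 32.4 RPM in reaggregates with a log2 fold change of -2.64 (limma, adjusted p = 6.62e-05). *Ccnd2* was between 62.4 and 69.6 RPM in reaggregates and at 94.6, 457, 122 and 482 RPM in flat cultures 1 to 4, so that its fall (-1.78; limma, adjusted p = 0.00989) rests mostly on flat cultures 2 and 4, and averaging consecutive reaggregates ended its call. The most abundant gene, *Cyp1b1*, averaged 1892 ± 339 RPM in reaggregates and 1642 ± 430 RPM in flat cultures and was not called.

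Other gene groups moved with the same comparison. All 15 cell cycle genes listed were down-regulated, beside 6.53% of all genes, and 11 with consecutive reaggregates averaged, beside 2.53%. They had a median log2 fold change of -2.24, and their summed level was between 337 and 498 RPM in reaggregates and between 1119 and 2517 RPM in flat cultures. *Rrm2*, a subunit of the enzyme that makes deoxyribonucleotides, fell most, with 213 ± 40.8 RPM in flat cultures and 23.9 ± 5.58 RPM in reaggregates, and *Top2a* was the most abundant. Of 11 immediate early genes, which respond quickly to growth factors and to handling of cells, 7 were up-regulated, beside 7.32% of all genes, 9 without flat culture 3, beside 12.5%, and 3 with consecutive reaggregates averaged, beside 1.9%, with *Fosb* moving most (log2 fold change, 4.19; limma, adjusted p = 0.00729). Their sum was 2863 RPM in flat culture 3, within the range of 2472 to 3087 RPM in reaggregates, and 454, 559 and 695 RPM in flat cultures 1, 2 and 4, and the most abundant was *Egr1*. Flat culture 3 thus lay within the range of the reaggregates in this sum as it did for *Ptch1*, *Boc* and *Cdon*, but above it for *Gli1*, *Gli2*, *Gli3* and *Hhip*, below it for *Smo* and *Gas1*, and above it for the cell cycle genes, whose sum was 2087 RPM there.

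Among markers of cell types, 6 of the 9 stromal markers that passed the filter were up-regulated, beside 7.32% of all genes, and 3 with consecutive reaggregates averaged, beside 1.9%, with *Col1a2* the most abundant and a summed level between 21245 and 27838 RPM in reaggregates and between 8519 and 19979 RPM in flat cultures. Of 6 osteoblast markers, beside 7.32% of all genes, 1 was up-regulated, *Dmp1*, a matrix protein of osteocytes. *Runx2* was the most abundant, and sums were between 73.3 and 119 RPM in reaggregates and between 39.0 and 80.7 RPM in flat cultures. Of 5 adipocyte markers 3 were down-regulated, *Pparg*, *Cebpa* and *Fabp4*, the last being the most abundant, beside 6.53% of all genes. The calls of all 3 ended with consecutive reaggregates averaged. Their sum was between 90.9 and 133 RPM in reaggregates, 116 and 170 RPM in flat cultures 1 and 3, and 1020 and 1126 RPM in flat cultures 2 and 4. Of 3 chondrocyte markers above the filter, *Sox9* was up-regulated, beside 7.32% of all genes, and *Col2a1*, the most abundant, was down-regulated, beside 6.53%. The chondrocyte markers summed to between 400 and 497 RPM in reaggregates and between 836 and 1627 RPM in flat cultures, while *Acan* was at 0 everywhere. Haematopoietic markers, led by *Cd68*, summed to at most 10.8 RPM, endothelial markers to at most 1.23 RPM and epithelial markers to at most 0.479 RPM in any library. The part of these groups in the differences of the Hedgehog components was not tested.

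The genes whose levels followed *Gas1* most closely over the 10 libraries, among 11661 genes with a mean of at least 5 RPM, were *Mxra8* (Pearson's r of log2 values, 0.991), *Ormdl3* (0.987) and *Pltp* (0.986). *Mxra8* was between 481 and 735 RPM in reaggregates and between 93.6 and 239 RPM in flat cultures. For *Gli1* they were *Ythdc2* (0.947), 2310004N24Rik (0.923) and 2700007P21Rik (0.917). *Ythdc2* was at 26.5, 18.0, 21.8 and 17.9 RPM in flat cultures 1 to 4, highest in the same 2 libraries as *Gli1*. These values describe 10 libraries that fall into 2 groups, were the highest of many, and carry no p.

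Promoters were read from RefSeq windows of 250 bases before to 50 after the start of a gene (GRCm38.p6), in which 7 of the 9 components had an entry and *Gli1* and *Boc* did not. The Gli consensus GACCACCCA, searched on both strands, was in none of the 7 windows and in 0.253% of the 32851 windows in the RefSeq table. With 1 mismatch allowed outside CCACCC it was again in none of the 7 and in 3.29% of all windows. Its core CCACCC alone was in 4 of the 7, those of *Gli2*, *Gli3*, *Smo* and *Hhip*, beside 31.5% of all windows. The GC box GGGCGG was in 5, those of *Gli2*, *Gli3*, *Ptch1*, *Hhip* and *Gas1*, beside 35.7% of all windows. The 7 windows had a GC content between 44.7% for *Cdon* and 76.3% for *Ptch1*, beside a median of 52.7%. A match describes letters, not a binding site, and the absence of a match covers only this window.

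The windows of *Gas1*, the component with the largest difference, and of *Ptch1* and *Hhip*, which are Hedgehog targets in many tissues, are shown 5′ to 3′ with CCACCC and GGGCGG, on either strand, in capitals. None of these matches overlap. The window of *Gas1* is chr13:60177486-60177785, that of *Ptch1* is chr13:63565686-63565985 and that of *Hhip* is chr8:80057959-80058258, each on the minus strand of GRCm38.p6. *Gas1* holds the GC box on the opposite strand at position -144 from the start, *Ptch1* holds it at -91, and *Hhip* holds CCACCC at -158 between GC boxes on the opposite strand at -179 and -124.
Gas1: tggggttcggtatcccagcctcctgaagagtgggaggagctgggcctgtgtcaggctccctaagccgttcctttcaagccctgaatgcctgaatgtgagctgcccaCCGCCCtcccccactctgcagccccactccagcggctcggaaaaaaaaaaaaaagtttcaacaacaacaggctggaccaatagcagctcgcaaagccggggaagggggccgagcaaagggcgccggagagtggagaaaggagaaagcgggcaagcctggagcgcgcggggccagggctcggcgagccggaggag
Ptch1: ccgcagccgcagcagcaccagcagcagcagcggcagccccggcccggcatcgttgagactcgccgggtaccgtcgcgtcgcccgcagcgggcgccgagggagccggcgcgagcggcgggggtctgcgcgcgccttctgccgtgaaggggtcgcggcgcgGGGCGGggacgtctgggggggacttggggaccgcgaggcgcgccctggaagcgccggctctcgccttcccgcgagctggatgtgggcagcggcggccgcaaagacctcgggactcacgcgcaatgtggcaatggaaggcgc
Hhip: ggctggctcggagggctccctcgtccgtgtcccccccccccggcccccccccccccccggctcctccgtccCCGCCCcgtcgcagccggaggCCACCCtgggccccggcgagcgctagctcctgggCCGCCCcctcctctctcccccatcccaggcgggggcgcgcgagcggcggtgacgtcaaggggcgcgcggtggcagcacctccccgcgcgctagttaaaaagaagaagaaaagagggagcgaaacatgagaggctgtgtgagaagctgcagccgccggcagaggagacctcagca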

How the data were processed

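The authors aligned 50-base single-end reads to NCBI37/mm9 with TopHat 1.2.0 and Bowtie, assigned them to Ensembl genes, divided reads with several positions among genes, and deposited values in RPM. The deposited log2 fold changes and adjusted p-values of the authors' own comparison were not used here. Groups, IL-3 and source came from the labels. Between 35.1% and 45.5% of values up to 10 RPM were whole reads within 0.05 reads, so no count test was run. Genes above 0.5 RPM in at least 1 library were compared on log2(RPM + 0.5) with limma 3.58.1 in R 4.3.3 (mean-variance trend, Benjamini-Hochberg adjustment), tested on simulated data. Exon lengths and coordinates came from GENCODE M1 on NCBIM37, a later annotation than that of the authors. Intervals are exact Poisson (scipy 1.17.1), and figures used matplotlib 3.10.9 in Python 3.11.15.

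Named genes were the components, the ligands, every called gene of the pathway lists (up to 6 by fold change), the 2 most abundant genes of each of these lists, the most abundant gene of each other list, defining cell type markers, and the 3 genes most correlated with *Gli1* and with the component of largest change. *Rrm2*, *Fosb*, *Sox9*, *Dmp1*, *Cebpa*, *Acan* and *Arhgap9* were named after their values were seen. Members and lists were chosen with earlier results of these data known. *Disp1*, *Mycn*, *Nkx6-1*, *Lep*, *Spi1* and protein sequences were not analysed here, and 1 gene that the naming rule takes is not reported here. There were 48 alternative settings, 2 of them chosen once the values were known.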

Additional observations from a re-analysis of the deposited data

Results flagged for a closer look

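Within the group of 4 flat cultures, flat culture 3 lay far above the other libraries for 3 components. It had 71.5 RPM of *Gli3*, where the other flat cultures were between 23.7 and 31.7 RPM. It had 41.1 RPM of *Boc*, where the others were between 18.5 and 21.5 RPM, and 2.99 RPM of *Hhip*, about 25 reads, where the others were between 0 and 0.46 RPM. *Hhip* passed the filter on low values through this library alone, so nothing is drawn from its place here. Of 18 groups of libraries examined (9 genes in 2 conditions), 0.9 would be singled out by chance at 1 in 20, and the 3 values come from the same library, so they are not independent. The values of *Gli3* and *Boc* lay within or next to the range of the reaggregates, whereas that of *Hhip* was above all of them. The cause was not tested.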

How the results depend on the processing

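*Gas1* was up-regulated under all 26 alternatives, with a log2 fold change between 2.84 and 3.48. The count of up-regulated components, 2 as reported, ranged from 1 to 4 when each library was left out in turn (4.52% to 12.5% of all genes). It was 1 without a filter (3.3% of all genes, beside 7.32% as reported) and with consecutive reaggregates averaged (1.9%) or as a random block (4.54%). It was also 1 with reaggregates without or with IL-3 alone (2.04% and 1.64%) and with flat cultures 1 and 3 alone (3.7%). It was 4 with flat cultures 2 and 4 alone (15.2% of all genes), with the adjusted p alone (13.6%), and with averaged reaggregates and flat culture 3 left out (8.81% of all genes), which was chosen after the values were seen. The count of down-regulated components was 2 instead of 0 with flat cultures 1 and 3 alone, beside 6.17% of all genes. These were *Gli1* and *Hhip*, and no call is drawn from *Hhip* because flat culture 3 alone took it past the filter. The cause of these changes was not tested, but averaging and subsets leave fewer samples.

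The count of up-regulated genes of the other pathway lists was 7 as reported, beside 7.32% of all genes. It became 4 to 22 when each library was left out (4.52% to 12.5% of all genes) and 11 with 0.1 RPM added (8.19%). The count was 1 with averaged reaggregates (1.9%), 2 with the random block (4.54%), and 1 and 0 with reaggregates without and with IL-3 alone (limma, 2.04% and 1.64%). With flat cultures 2 and 4 or 1 and 3 alone it was 23 and 2 (15.2% and 3.7%). It was 16 with averaged reaggregates and flat culture 3 left out (8.81%), and 27 with the adjusted p alone (13.6%). None of the 7 is among the 2 with flat cultures 1 and 3 alone, and *Osr2*, called with averaged reaggregates, was not called with the reaggregates given IL-3 alone. The count of down-regulated genes, 2 as reported beside 6.53% of all genes, became 3 with 0.1 RPM added (7.45%), without flat culture 1 (6.79%) or with flat cultures 2 and 4 alone (10.5%). It became 1 with averaged reaggregates (2.53%) or with reaggregates without or with IL-3 alone (2.8% and 2.13%), and 5 with the adjusted p alone (15.7%). Over all genes, 1239 up-regulated and 1106 down-regulated genes became 321 and 429 with averaged reaggregates.

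Nothing in the labels says that replicate numbers 1 to 4 pair the samples. Deviations of same-numbered libraries from their group means had correlations between -0.24 and 0.15. These cannot show or exclude pairing, since consecutive reaggregates were alike and flat culture 3 stood apart. Its correlations with reaggregates 1 and 2 were 0.42 and 0.45. With the replicate number as a block, 14 of the other pathway genes were up-regulated, beside 11.1% of all genes. In the same 8 libraries without the block the count was 15, beside 11.2%. *Cdon* (log2 fold change, 1.22; limma, adjusted p = 0.0657) was not called and *Boc* (1.24; limma, adjusted p = 0.0158) was, and the unblocked fit of these libraries made the same calls.

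*Hhip* turned from -0.73 to 0.20 with flat cultures 2 and 4 alone, where it was at 0. Differences with IL-3, none called by limma under any setting, changed sign for every component when some reaggregate was left out, which unbalances the pairs of consecutive reaggregates. Leaving out each in turn gave -0.49 to 0.0430 for *Gli1*, -0.10 to 0.11 for *Gli2*, -0.0150 to 0.21 for *Gli3*, -0.17 to 0.30 for *Ptch1*, -0.0877 to 0.23 for *Smo*, -0.0910 to 0.21 for *Hhip*, -0.40 to 0.17 for *Boc*, -0.29 to 0.29 for *Gas1* and -0.0891 to 0.13 for *Cdon*. *Hhip* was at -0.000224 with 1 RPM added and *Cdon* at -6.79e-05 with median-ratio scaling. For the source of the flat cultures, the difference of *Gas1* was between -1.32 and 0.19 when each flat culture was left out.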
